A study of Mus musculus with 11 samples.

Results

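The interleukin-6 (IL-6) family was followed through 10 genes in WFU3 cells, which are stem cells of the mouse prostate epithelium grown as a line: the ligand genes Il6, Il11, Lif and Clcf1, the receptor genes Il6ra, Il6st, Lifr, Osmr and Cntfr, and the feedback inhibitor Socs3. They were taken by symbol from a table of 48299 genes, in all 11 RNA-seq libraries, and all 10 were among the 14346 genes that passed the filter on low counts. The genes were selected on the family they belong to, with their fold changes in the Map3k7-hairpin lines of these libraries already known, so their levels in the Map3k7 lines are given as a description, and counts over the 10 genes carry no weight as evidence.

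All cells carried lentiviral short hairpin RNAs. shDouble (4 libraries) held a Map3k7 hairpin and a Chd1 hairpin, with construct 96526 or 96528 placed in Map3k7 clone 1 (passage 49) and in Map3k7 clone 7 (passage 48). shMap3k7 (2 libraries) was clone 1 at passage 49 and clone 7 at passage 47, with a control second hairpin. shChd1 (2 libraries) was control clone 4 with Chd1 construct 96526 (passage 52) or 96528 (passage 50). shControl (3 libraries) was a control line without a clone number (replicate 1, passage 30), clone 4 (replicate 2) and clone 5 (replicate 3), the last pair at passage 52. The Map3k7 hairpin, or a non-targeting hairpin, came in a LentiLox-type vector with EGFP, and clones were picked with cloning cylinders. The second hairpin came in a puromycin vector. These marks, GFP and puro, are on the labels of 10 libraries, while the label of shControl replicate 1 gives control hairpins marked puro and neo and no GFP. RNA was taken a day after plating. Every library with the Map3k7 hairpin therefore comes from 1 of 2 clones, and both shChd1 libraries from 1 clone. The effect of a hairpin and the character of a clone cannot be told apart in comparisons between them. No source says that libraries of a group were separate cultures, so p-values measure only the spread between these libraries.

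IL-6 family cytokines signal through receptor complexes that share gp130, the protein of Il6st. IL-6 and IL-11 bind a ligand-specific subunit that then engages gp130, whereas leukaemia inhibitory factor (Lif), oncostatin M and the ciliary neurotrophic factor group use gp130 paired with the receptors encoded by Lifr or Osmr. The complexes activate Janus kinases (JAKs) and the transcription factor STAT3, which induces Socs3, an inhibitor that binds gp130. Map3k7 encodes TAK1, a kinase that links cytokine and Toll-like receptors to NF-kB and AP-1, factors known to act on the Il6 promoter, and Chd1 encodes a chromatin remodeller that is often deleted in human prostate cancer.

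Libraries held 14132371 to 23163709 counts. Levels below are counts per 1e6 library counts (CPM), scaled with trimmed mean of M-values (TMM) factors, and 3 counts, the floor used for a gene not seen, correspond to about 0.133 CPM in the deepest library. Map3k7 averaged 41.0 ± 1.27 CPM in shDouble (SD, n = 4) and 41.5 ± 2.07 in shMap3k7 (SD, n = 2), against 138 ± 0.264 in shChd1 (SD, n = 2) and 134 ± 8.91 in shControl (SD, n = 3). Chd1 averaged 186 ± 16.3 CPM in shDouble and 229 ± 12.4 in shMap3k7, with the ranges apart but no call in that comparison, and 148 ± 3.43 in shChd1 against 204 ± 8.61 in shControl (log2 -0.46 ± 0.10, edgeR adjusted p = 0.047). Chd1 was itself called higher in shDouble than in shChd1 (log2 0.33 ± 0.10, edgeR adjusted p = 0.0199). It was not called in shDouble against shControl (edgeR adjusted p = 0.291). Of 7 epithelial markers, Krt8, Krt18, Krt14, Epcam and Cdh1 were present in every library, and the summed level of the 7 was 9904 to 10483 CPM in shDouble, 10135 to 10311 in shMap3k7, 2039 to 2291 in shChd1 and 3832 to 9661 in shControl. The keratins carry this sum. In shDouble against shChd1, 5 of the 7 rose and 1 fell: Trp63, the basal transcription factor, had 0.521 to 2.34 CPM in shDouble and 0.585 to 1.81 in shMap3k7, against 18.5 to 20.9 in shChd1 and 5.17 to 12.1 in shControl. Krt5, a defining basal keratin, stood between 0.0519 and 1.93 CPM in 10 libraries and at 48.9 in shControl replicate 1. The summed level of 8 fibroblast markers was 5.47 to 9.27 CPM in shDouble and 7.67 to 10.7 in shMap3k7, against 128 to 134 in shChd1 and 26.4 to 100 in shControl. Col3a1 (91.0 and 87.2 CPM) and Pdgfrb (21.8 and 18.3) carry most of the sum in shChd1. Of the 5 fibroblast markers tested, 4 fell in shDouble against shChd1. Col1a1 overlapped, with 1.01 to 2.94 CPM in shDouble and 2.36 and 2.02 in shChd1, and Lum was at 0 in all 11 libraries. Of 6 immune markers the sums lay between 1.45 and 4.11 CPM in all libraries. Of the 2 tested, 1 rose in shDouble against shChd1: Csf1r, with 0.78 to 2.81 CPM in shDouble against 0.0622 and 0 in shChd1. The 4 endothelial markers summed to at most 0.498 CPM in 10 libraries and to 38.7 in shControl replicate 1. The part of these shifts in the results below was not tested, and in bulk RNA fewer cells of a type and less RNA per cell cannot be told apart.

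Promoter sequence was searched for motifs of transcription factors, and stretches with a match are shown for Il6, Lif, Il11 and Socs3. RefSeq promoter windows (GRCm38.p6, 250 bases before the start) were held for 9 of the 10 genes, all but Clcf1. They were searched on both strands for an NF-kB motif, the AP-1 motif TGANTCA, the STAT motif TTCNNNGAA and the cyclic AMP element TGACGTCA. Of 32851 promoter windows, 7.25% hold the NF-kB motif, 6.75% the AP-1 motif, 7.02% the STAT motif and 1.55% the cyclic AMP element. The stretches below are shown 5′ to 3′ on the gene's strand, without annotated exon bases, and capitals mark the matches.
Il6: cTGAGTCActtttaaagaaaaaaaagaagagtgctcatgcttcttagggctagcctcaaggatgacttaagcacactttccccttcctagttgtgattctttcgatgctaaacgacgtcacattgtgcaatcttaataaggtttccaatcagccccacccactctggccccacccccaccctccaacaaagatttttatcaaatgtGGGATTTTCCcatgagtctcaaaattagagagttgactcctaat
Lif: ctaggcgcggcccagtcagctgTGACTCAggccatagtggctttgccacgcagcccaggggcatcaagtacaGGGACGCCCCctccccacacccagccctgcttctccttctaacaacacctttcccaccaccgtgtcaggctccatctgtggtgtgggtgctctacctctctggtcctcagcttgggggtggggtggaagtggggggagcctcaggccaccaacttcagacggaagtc
Il11: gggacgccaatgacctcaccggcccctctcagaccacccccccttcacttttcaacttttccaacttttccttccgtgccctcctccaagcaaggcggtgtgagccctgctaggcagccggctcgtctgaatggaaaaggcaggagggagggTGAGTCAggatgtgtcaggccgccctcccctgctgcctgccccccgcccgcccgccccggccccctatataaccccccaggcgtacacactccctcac
Socs3: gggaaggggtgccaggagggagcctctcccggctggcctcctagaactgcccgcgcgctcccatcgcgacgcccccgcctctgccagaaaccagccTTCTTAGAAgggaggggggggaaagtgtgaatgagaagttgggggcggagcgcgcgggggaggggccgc
The Il6 stretch (chr5:30012864-30013113, plus strand) held the NF-kB match GGGATTTTCC from -44 to -35 and the AP-1 match TGAGTCA from -249 to -243. In the Lif stretch (chr11:4257318-4257556, plus strand) an NF-kB match, GGGACGCCCC, lay from -178 to -169 and an AP-1 match, TGACTCA, from -228 to -222. Il11 (chr7:4778142-4778391, minus strand, the second of its listed promoters) had an AP-1 match from -98 to -92, and Socs3 (chr11:117969452-117969616, minus strand) the STAT match TTCTTAGAA from -154 to -146. Cntfr had an NF-kB match, GGGGAGCCCC, from -173 to -164 in the sixth of its listed promoters. These are matches of letters, and the files measure no binding.

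All 10 genes separated the 6 libraries with the Map3k7 hairpin from the 5 without it. Il6, Il11, Lif, Il6ra, Il6st, Lifr, Osmr and Socs3 were lower in every Map3k7-hairpin library than in any other, and Clcf1 and Cntfr were higher. Ranges that do not overlap were found for 24.9% of the 14346 genes (12.8% lower, 12.1% higher), and the choice of the genes itself favours this pattern.

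**Figure D1:**
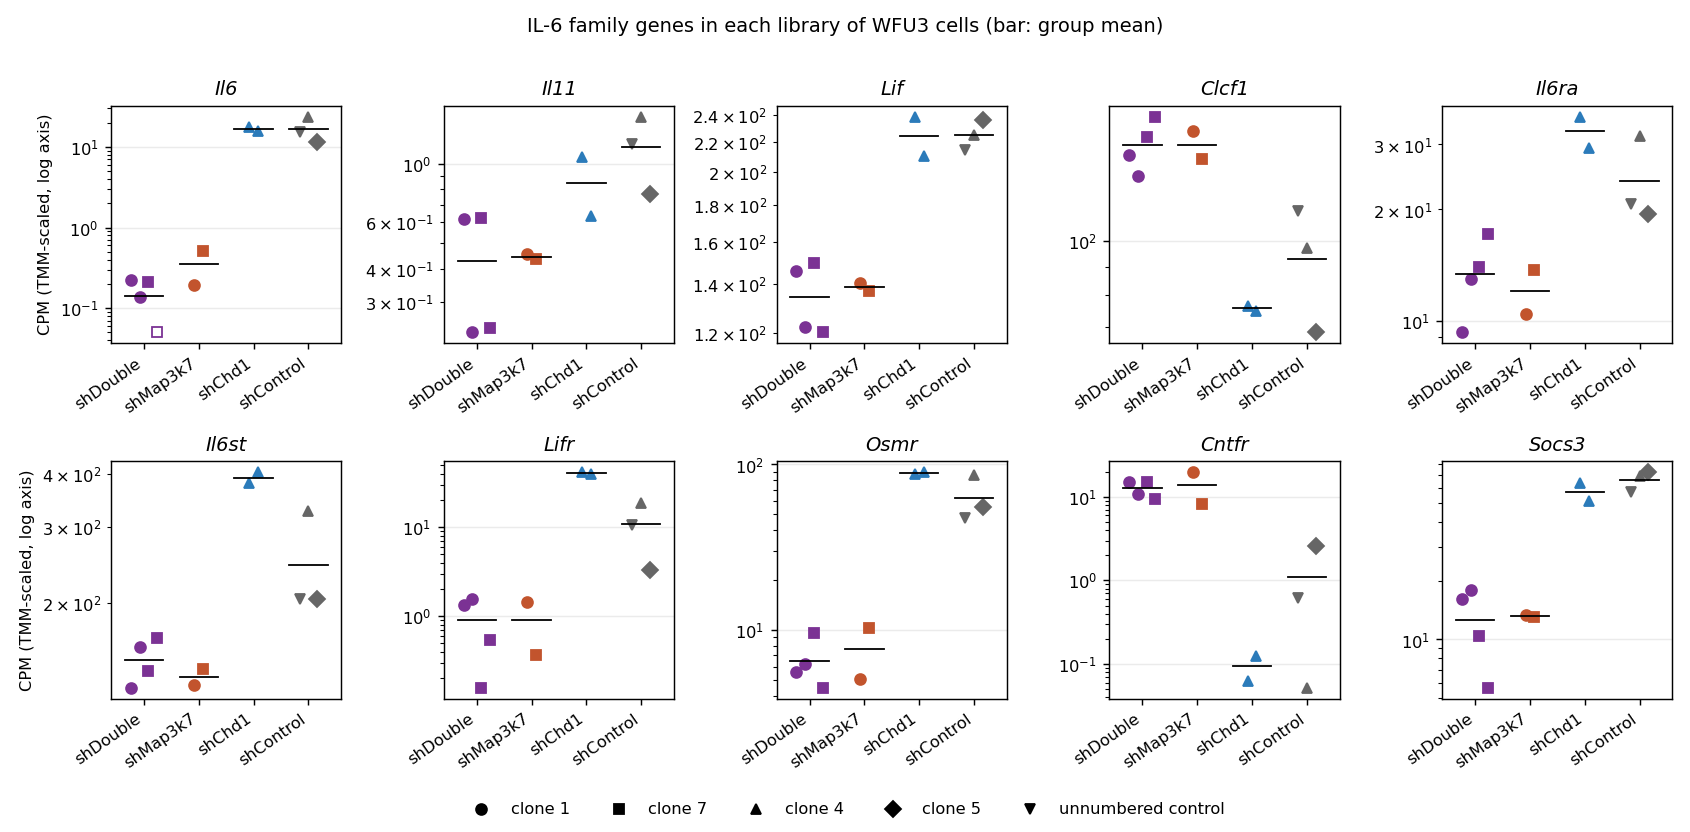
TMM-scaled CPM (log axis) of the 10 genes in each of the 11 libraries, by group from left to right shDouble, shMap3k7, shChd1 and shControl; marker shape gives the line, the bar is the group mean, and the open symbol for Il6 is a library with 0 counts. The libraries with the Map3k7 hairpin stand apart from the others in all 10 panels, higher for Clcf1 and Cntfr and lower for the rest.

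Among the ligands, Il6, an inflammatory cytokine, was nearly silent with the Map3k7 hairpin. It had 0.221, 0.138, 0.208 and 0 CPM in shDouble and 0.195 and 0.507 in shMap3k7, against 17.5 and 15.7 in shChd1 and 15.2, 23.7 and 11.5 in shControl. No Map3k7-hairpin library held more than 7 counts, whereas the others held 210 to 456. In the comparison of shDouble with shChd1 all libraries carry a Chd1 hairpin, though Chd1 mRNA was higher in shDouble. Il6 fell there by 6.75 ± 0.49 on the log2 scale (edgeR quasi-likelihood adjusted p = 3.14e-05). From the pooled counts, 12 against 530, the level was 111-fold lower (95% counting interval 63.2 to 217).

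Lif, a ligand of the Lifr and gp130 pair that keeps mouse embryonic stem cells undifferentiated in culture, remained an abundant transcript in all groups. It had 146, 122, 150 and 120 CPM in shDouble and 141 and 137 in shMap3k7, against 239 and 211 in shChd1 and 215, 225 and 236 in shControl. The mean of shDouble was 59.7% of that of shControl, and the libraries of each group lay close together. Lif fell by 0.74 ± 0.11 in shDouble relative to shChd1 (edgeR adjusted p = 5.84e-04).

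Il11, a ligand that uses its own receptor subunit with gp130, was rare everywhere. It had 0.619, 0.23, 0.625 and 0.238 CPM in shDouble and 0.455 and 0.435 in shMap3k7, against 1.06 and 0.632 in shChd1 and 1.19, 1.5 and 0.77 in shControl. The lowest library without the Map3k7 hairpin, at 10 counts, lay just above the highest with it. The log2 difference between shDouble and shChd1, -0.96 ± 0.52, did not pass the threshold (edgeR adjusted p = 0.153).

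Clcf1, a ligand of the ciliary neurotrophic factor receptor, went the other way. It had 143, 131, 154 and 168 CPM in shDouble and 158 and 141 in shMap3k7, against 76.3 and 74.9 in shChd1 and 113, 97 and 68.4 in shControl. The lowest Map3k7-hairpin library exceeded the highest of the others, shControl replicate 1. Clcf1 rose by 0.98 ± 0.18 in shDouble relative to shChd1 (edgeR adjusted p = 0.00179; 0.0715 with counts summed per line). The gene lies on chromosome 19, where the median log2 change of the 468 genes tested was 0.40 in this comparison and 0.36 in shMap3k7 against shControl, while the medians over all genes were 0.01 and -0.01. Whether the Clcf1 difference is part of this chromosome-wide shift was not tested.

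Among the receptors, Il6st, the shared signal transducer gp130, was lower with the Map3k7 hairpin but stayed well expressed. It had 127, 158, 138 and 166 CPM in shDouble and 129 and 140 in shMap3k7, against 380 and 403 in shChd1 and 205, 328 and 204 in shControl. Control clone 4, the parent of the shChd1 lines, was the highest of the controls. Il6st fell by 1.41 ± 0.18 in shDouble relative to shChd1 (edgeR adjusted p = 2.85e-04).

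Il6ra, the subunit that binds IL-6, had 9.29, 13, 14.0 and 17.2 CPM in shDouble and 10.4 and 13.7 in shMap3k7, against 35.7 and 29.4 in shChd1 and 20.7, 31.6 and 19.4 in shControl. The highest shDouble library came close to the lowest control, clone 5, without reaching it. Il6ra fell by 1.29 ± 0.25 in shDouble relative to shChd1 (edgeR adjusted p = 0.00223; 0.0566 with counts summed per line).

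Osmr and Lifr, which pair with gp130 for oncostatin M and Lif, had the largest decreases among the receptors in shDouble relative to shChd1. Osmr had 5.57, 6.24, 9.63 and 4.46 CPM in shDouble and 5.07 and 10.3 in shMap3k7, against 87.2 and 89.8 in shChd1 and 47.6, 86.1 and 54.9 in shControl. It fell by 3.77 ± 0.33 in shDouble relative to shChd1, 13.6-fold (edgeR adjusted p = 5.17e-05). Lifr had 1.33, 1.56, 0.156 and 0.535 CPM in shDouble and 1.43 and 0.362 in shMap3k7, against 41.4 and 40.0 in shChd1 and 10.5, 18.5 and 3.3 in shControl. Relative to its mean, Lifr varied more among the controls than any other receptor gene but Cntfr, with clone 5 the lowest. Lifr fell by 5.46 ± 0.72 in shDouble relative to shChd1, 44.0-fold (edgeR adjusted p = 3.09e-04). This size includes the higher level of Lifr in clone 4 than in the other controls. It also includes the still higher level in both shChd1 libraries than in the clone 4 control. The summed fibroblast markers given above, carried in shChd1 mostly by Col3a1 and Pdgfrb, differ between these groups in the same direction. So do Il6, Lif, Il6st, Il6ra and Socs3, and a link of the markers to any of these genes was not tested.

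Cntfr, the ligand-binding subunit of the ciliary neurotrophic factor receptor, was the receptor gene with higher levels in the Map3k7 lines. It had 15.1, 10.9, 15.2 and 9.45 CPM in shDouble and 19.7 and 8.26 in shMap3k7, against 0.0622 and 0.126 in shChd1 and 0.624, 0.0519 and 2.58 in shControl. Clone 4 held 1 or 2 counts in each of its 3 libraries, and clone 5 held 47. Cntfr rose in shDouble relative to shChd1 (log2 6.97 ± 1.23, edgeR adjusted p = 0.0014; 0.0605 with counts summed per line). The fitted size rests on 3 counts in shChd1, and the ratio of the pooled counts, 1029 against 3, was 136 with a counting interval of 46.4 to 660. Cntf, the gene of the ligand that names this receptor, was tested too and was not called.

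Socs3, the inhibitor that STAT3 induces, was lower with the Map3k7 hairpin. It had 16.1, 18, 10.4 and 5.65 CPM in shDouble and 13.4 and 13 in shMap3k7, against 63.2 and 51.3 in shChd1 and 57.2, 68.9 and 72.2 in shControl. The lowest library was clone 7 with Chd1 construct 96528. Socs3 fell by 2.18 ± 0.33 in shDouble relative to shChd1, 4.55-fold (edgeR adjusted p = 5.94e-04). In all, 9 of the 10 genes were called in this comparison, 2 higher and 7 lower, where 44.8% of all genes tested were called (22.6% higher, 22.2% lower). The median log2 change was -1.35 over the 10 genes and 0.01 over all genes, and the median absolute change 1.80 against 0.48. With counts summed per line, 6 of the 10 were called.

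Set against the control hairpins, the same directions were seen, and these values are a description because they helped to choose the genes and because both comparisons share the controls. The comparison of shDouble with shChd1 holds the same Map3k7 clones, and shChd1 derives from control clone 4. Its p-values for the 10 genes are therefore not independent of that choice. In shMap3k7 relative to shControl the log2 difference was -5.58 for Il6, -3.55 for Lifr, -3.04 for Osmr and -2.32 for Socs3. It was -1.36 for Il11, -0.99 for Il6ra, -0.87 for Il6st and -0.70 for Lif, and 0.69 for Clcf1 and 3.68 for Cntfr. In shDouble relative to shControl it was -6.76 for Il6, -3.54 for Lifr, -3.28 for Osmr, -2.39 for Socs3 and 3.53 for Cntfr. Of the 10 genes, 9 were called in shMap3k7 against shControl, where 11.9% of all genes were, and 10 in shDouble against shControl, where 23.8% were. Without shControl replicate 3, whose 47 counts make up most of the control signal of Cntfr, the Cntfr differences were 5.42 and 5.28. For shMap3k7, the Cntfr difference was 2.91 without shMap3k7 replicate 1, where that of Lifr was -4.87. Without shMap3k7 replicate 2 the differences were -6.39 for Il6, -3.64 for Osmr and -2.91 for Lifr. Without shControl replicate 2 the Lifr differences were -2.90 in shMap3k7 and -2.89 in shDouble, and those of Il6st were -0.61 and -0.47.

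**Figure D2:**
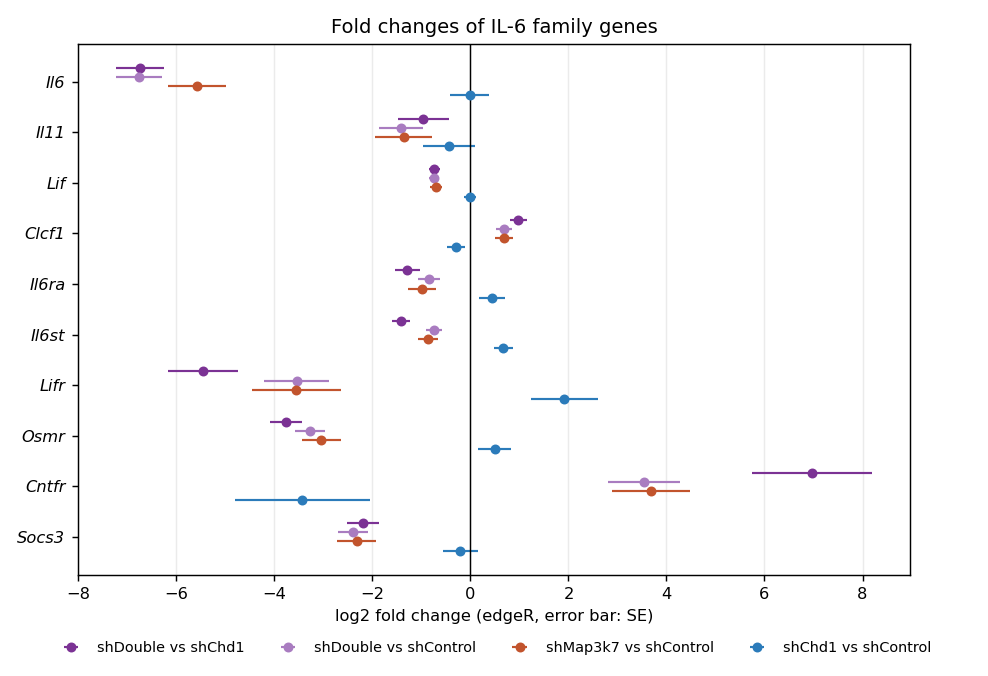
Log2 fold change (horizontal axis, edgeR, bars are SE) of each gene in shDouble against shChd1, shDouble against shControl, shMap3k7 against shControl and shChd1 against shControl. Il6 lies between -6.76 and -5.58 in the 3 comparisons of Map3k7-hairpin lines with lines without it, Cntfr between 3.53 and 6.97, and the shChd1 against shControl points of Il6 and Lif at 0.

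The order of the genes by level also differed between groups. Per kilobase of merged exon sequence, Clcf1 came first in shDouble at 39.2 ± 4.07 CPM per kilobase (SD, n = 4), above Lif at 30.9 ± 3.58, with no library of Lif reaching the lowest of Clcf1. Il6st stood at 13.3 ± 1.60 CPM per kilobase in shDouble, and Cntfr at 4.55 ± 1.05 and Socs3 at 4.33 ± 1.94 did not differ beyond their spread. Il6ra (1.54 ± 0.376) just overlapped Socs3, and Osmr (0.535 ± 0.184) followed without overlap. Il11 (0.206 ± 0.108) overlapped Lifr (0.083 ± 0.0612), which overlapped Il6 (0.0584 ± 0.0418), the last. In shControl, Lif led at 51.8 ± 2.42 CPM per kilobase (SD, n = 3), followed by Clcf1 at 24.4 ± 5.97, Socs3 at 22.9 ± 2.73 and Il6st at 22.1 ± 6.42, which do not differ beyond their spread. Il6 (6.92 ± 2.56) and Osmr (5.19 ± 1.69) came next and overlap, then Il6ra (2.77 ± 0.774). Lifr (0.998 ± 0.704), Il11 (0.554 ± 0.177) and Cntfr (0.391 ± 0.477) were last and overlap one another, with Lifr the lowest of them in shControl replicate 3. Cntfr thus had rank 4 in shDouble, against rank 10 in shControl, and Il6 had rank 10 in shDouble, against rank 5 in shControl. With the longest transcript as the length, 5 of the 10 genes kept their rank in shControl.

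The Chd1 hairpins were compared with control hairpins in lines without the Map3k7 hairpin. None of the 10 genes was called in shChd1 against shControl by edgeR (2.91% of all genes were). Of the 10, 3 had an unadjusted edgeR p under 0.05, as had 3603 of the 14346 genes tested. DESeq2 called 2 of the 10, Il6st and Cntfr, and limma 0. The share of all genes that DESeq2 called is not given here. Lifr stood at 1.92 ± 0.68 on the log2 scale (edgeR adjusted p = 0.122), Il6st at 0.67 ± 0.20 (0.079) and Cntfr at -3.43 ± 1.38 (0.156). The pooled Cntfr counts were 3 in shChd1 against 58 in shControl, a ratio of 0.0867 (counting interval 0.0174 to 0.266). Of the 58, 47 were in shControl replicate 3, and without that library the Cntfr log2 difference was -1.69. All shChd1 cells descend from clone 4, and relative to the control library of that clone Lifr was higher with both constructs, by 1.16 and 1.11, while Cntfr was 0.09 and 0.54. With the line as a block, Lifr rose by 1.14 ± 0.21 (adjusted p = 0.0378, with 0.99% of all genes called), Il6st was at 0.26 ± 0.14 (adjusted p = 0.413) and Cntfr turned to 0.78 ± 2.26 (adjusted p = 0.903). Without shControl replicate 2, the clone 4 library, Lifr (log2 2.57), Il6st and Cntfr were called (adjusted p = 0.036, 0.00188 and 0.0199).

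Within the Map3k7 clones, adding a Chd1 hairpin gave no call. In shDouble against shMap3k7, 0 of the 10 genes and 0 of all genes (background 0%) were called by edgeR. Of the 10, 0 had an unadjusted p under 0.05, as had 115 of all genes tested. DESeq2 and limma called 0 of the 10. The log2 difference was -1.18 ± 0.74 for Il6, -0.24 ± 0.36 for Osmr, 0.01 ± 0.91 for Lifr, -0.14 ± 0.68 for Cntfr and -0.04 ± 0.11 for Lif. Whether the Chd1 hairpins acted differently in the Map3k7 clones and in clone 4 was tested as an interaction. With edgeR 0 of the 10 genes and 0 of all genes (0%) passed. Of the 10, 0 had an unadjusted edgeR p under 0.05, as had 1998 of all genes tested. DESeq2 and limma called 0 of the 10. Lifr differed by -1.91 ± 1.16 (adjusted p = 0.476) and Cntfr by 3.29 ± 1.58 (0.376). Without shControl replicate 2 the interaction of Il6st was called. With the line as a block none of the 10 was called, and 0.0767% of all genes were. In the block fit the Lifr interaction was -1.15 ± 0.40 (edgeR unadjusted p = 0.0161, adjusted p = 0.277). Chd1 mRNA was still at 72.6% of the shControl mean in shChd1, and at 91.3% of it in shDouble.

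**Figure D3:**
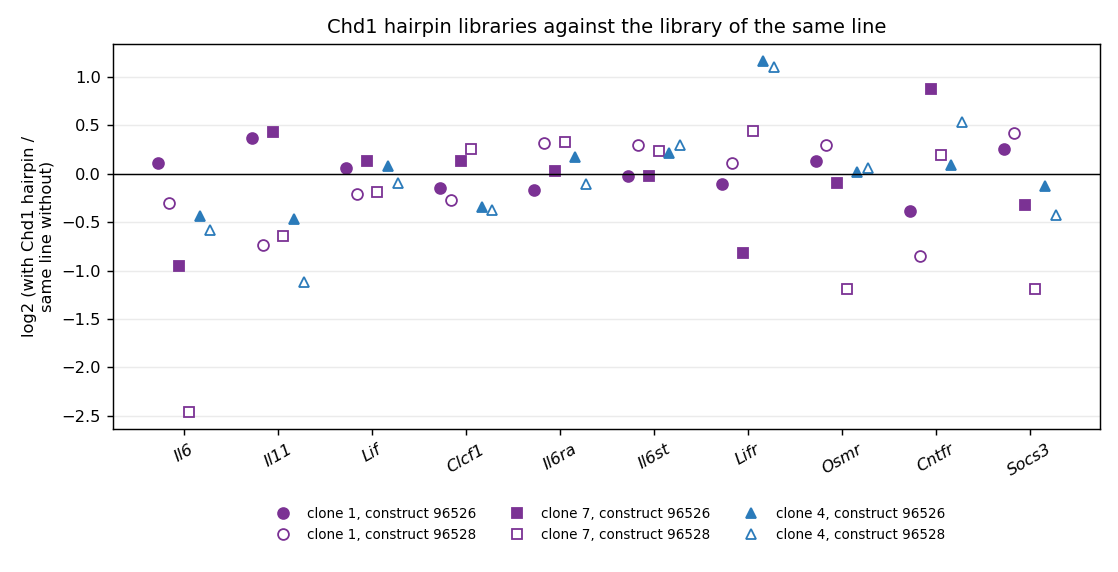
Log2 ratio (vertical axis) of each Chd1-hairpin library to the library of the same line without that hairpin, with a prior of 2 counts, for the 10 genes; purple circles are clone 1, purple squares clone 7 and blue triangles clone 4, filled for construct 96526 and open for construct 96528. Lifr lies at 1.16 and 1.11 in clone 4 and between -0.82 and 0.45 in the Map3k7 clones, and Il6 is lower in 5 of 6 libraries, down to -2.46 in a library with 0 counts. In the Map3k7 clones the Il6 ratios rest on at most 7 counts per library, with 3 against 3 for clone 1 with construct 96528.

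The Map3k7 clones differed from each other in some of the genes. Fitted over their 6 libraries with the second hairpin as a covariate, Lifr was higher in clone 1, with 1.33, 1.56 and 1.43 CPM against 0.156, 0.535 and 0.362 in clone 7 (log2 2.08 ± 0.41, edgeR adjusted p = 0.00718). Il6ra was lower in clone 1, with 9.29, 13 and 10.4 CPM against 14.0, 17.2 and 13.7 in clone 7 (log2 -0.45 ± 0.10, edgeR adjusted p = 0.0118). Socs3 had 16.1, 18 and 13.4 CPM in clone 1 and 10.4, 5.65 and 13 in clone 7, and did not pass (log2 0.76 ± 0.26, edgeR adjusted p = 0.0529); it passed with no filter on low counts (7.37e-04), and without shMap3k7 replicate 1 or 2 (3.43e-14 and 3.23e-14, at 1.10 and 1.09), but in no fit that left out 1 shDouble library. Of the 8 genes with enough counts for this fit, 2 were called, where 35.8% of 13030 genes were, so the share is not above that of all genes. Without shDouble replicate 1 neither gene was called (log2 1.72 for Lifr and -0.39 for Il6ra). Il6ra was not called without shDouble replicate 3 (log2 -0.40) or with DESeq2 (DESeq2 adjusted p = 0.0726). These left-out fits also leave a second hairpin with 1 library.

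The other genes of the pathway were followed in shDouble against shChd1. Of 14 JAKs, STATs and adaptors tested, 9 fell and 1 rose, where 44.8% of all genes were called and 22.2% fell. The median log2 change was -0.46, against 0.01 for all genes, and the median absolute change was 0.46, against 0.48 for all genes, so the size of the changes was not above that of all genes. Stat3, the main effector of gp130, had 91.1, 107, 78.3 and 85.2 CPM in shDouble against 403 and 376 in shChd1 and fell by 2.11 ± 0.17 (edgeR adjusted p = 3.57e-05). All 6 Map3k7-hairpin libraries held less Stat3 than any other library. Stat5a, a STAT of cytokine and prolactin receptors, fell by 1.66 ± 0.20 (edgeR adjusted p = 2.16e-04), and Jak3, a kinase known from cytokine receptors of blood cells, fell by 1.58 ± 0.20 (2.77e-04). Without shChd1 replicate 1 the list had 6 calls, and with counts summed per line it had 3.

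Of 14 negative regulators of JAK-STAT signalling besides Socs3, 3 rose and 3 fell (median 0.05). That share of calls is near the 44.8% of all genes, and the median absolute change was 0.43, against 0.48 for all genes. Pias4, an inhibitor of STATs, rose by 0.57 ± 0.11 (edgeR adjusted p = 0.0018), Socs6 rose by 0.72 ± 0.15 (0.00394) and Socs4 rose by 0.43 ± 0.14 (0.0329), while Ptpn1, a phosphatase of JAKs, fell by 0.71 ± 0.15 (0.00304). The ranges of all 4 overlap between libraries with and without the Map3k7 hairpin. The Socs6 call was lost without shChd1 replicate 2 (adjusted p = 0.0556), and the Socs4 call without shDouble replicate 2, 3 or 4 or either shChd1 replicate (adjusted p = 0.0551 to 0.218). The list had 3 calls without shDouble replicate 2 or shChd1 replicate 1, 2 without shChd1 replicate 2 and 0 with counts summed per line.

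Of 24 STAT3-responsive genes tested, 11 fell and 6 rose, where 22.2% of all genes fell and 22.6% rose (median -0.52; median absolute change 1.40 against 0.48 for all genes). Cebpd, an acute-phase transcription factor, averaged 12.6 ± 2.92 CPM in shDouble (SD, n = 4) and 110 ± 10.2 in shChd1 (SD, n = 2) and fell by 3.13 ± 0.19 (edgeR adjusted p = 1.02e-05). Bcl3, an NF-kB cofactor, had 5.22, 6.01, 6.77 and 4.58 CPM in shDouble against 59.9 in both shChd1 libraries and fell by 3.40 ± 0.25 (3.31e-05). Lbp, a lipopolysaccharide-binding protein, fell by 6.58 ± 0.65 (8.96e-05); without shDouble replicate 2 it fell by 7.26. Lcn2, a secreted iron-carrier protein, ranged over 0.884 to 10.7 CPM in shDouble against 2181 and 2221 in shChd1 and fell by 9.18 ± 1.07 (edgeR adjusted p = 1.83e-04). Without shDouble replicate 3, the library at 10.7 CPM, Lcn2 fell by 10.49. It had 1.43 and 30.1 CPM in shMap3k7 and 508, 1177 and 583 in shControl. Lbp had 165 and 126 CPM in shChd1 and 28.9, 90.1 and 28.8 in shControl. The sizes for Lbp and Lcn2 thus include their higher levels in shChd1. Several of the STAT3-responsive genes are also known as NF-kB targets.

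Of 7 regulators of Il6 mRNA stability or, for Nfkbiz, of Il6 transcription, 3 fell and 1 rose, beside 44.8% of all genes called. The median absolute change was 0.49, against 0.48 for all genes. Zc3h12a, the RNase Regnase-1 that degrades Il6 mRNA, averaged 13.2 ± 2.35 CPM in shDouble and 50.7 ± 8.66 in shChd1 and fell by 1.94 ± 0.21 (edgeR adjusted p = 1.41e-04). Zfp36l1, which binds AU-rich elements, fell by 1.43 ± 0.27 (0.00195), and Nfkbiz, an NF-kB cofactor of Il6 transcription, fell by 0.75 ± 0.19 (0.0102). Rc3h1, the RNA-binding protein Roquin, rose by 0.33 ± 0.12 (0.047), a call lost when any 1 library of shDouble, shMap3k7 or shChd1 was left out. The Nfkbiz call was lost without shChd1 replicate 1 (adjusted p = 0.105). The list had 2 calls without shChd1 replicate 1 and 1 with counts summed per line. Of both sheddases that release soluble receptors, Adam10 fell by 1.04 ± 0.16 (6.67e-04) and Adam17 was not called. Of 8 other family ligands and 3 other receptors, 3 and 1 had enough counts and none was called (1 ligand was without shChd1 replicate 1); Osm, the ligand of Osmr, did not pass the filter on low counts.

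**Figure D4:**
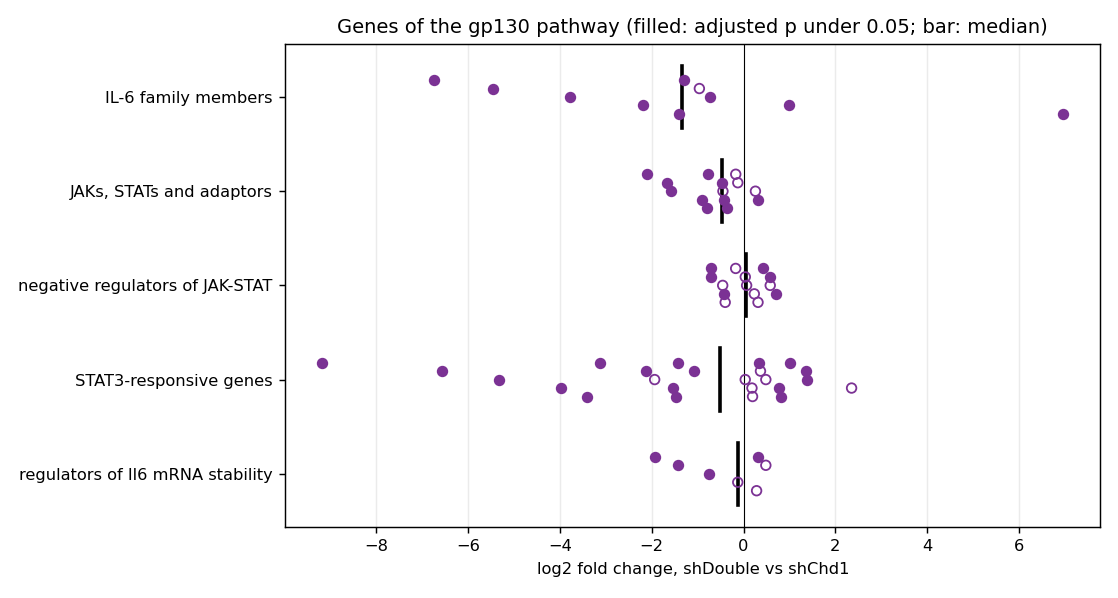
Log2 fold change in shDouble against shChd1 (horizontal axis) of the genes in 5 lists; each point is a gene, filled where its adjusted p was under 0.05, and the bar is the median of the list. The family medians lie at -1.35 for the 10 genes, -0.46 for JAKs, STATs and adaptors, 0.05 for negative regulators, -0.52 for STAT3-responsive genes and -0.13 for regulators of Il6 mRNA stability. The last list also holds Nfkbiz, a cofactor of Il6 transcription.

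Osmr and Lifr are neighbours on chromosome 15, with 215.6 kb between their starts. Rictor, a subunit of the mTORC2 kinase complex whose start lies 166.6 kb from that of Osmr, was not called (log2 -0.21 ± 0.15, edgeR adjusted p = 0.273). Fyb, an adaptor of blood cells 352.1 kb from Osmr on the side away from Lifr, fell by 4.12 ± 1.12 (edgeR adjusted p = 0.0126) at 0.0629 CPM in shDouble against 1.2 in shChd1, with at most 3 counts in a shDouble library against 12 and 26 in the shChd1 libraries. On chromosome 4, Il11ra1, the gene of the IL-11 receptor subunit, starts 2.9 kb from Cntfr on the other strand and was not called (log2 0.21 ± 0.41, edgeR adjusted p = 0.715), though its reads may be shared with a near-identical copy, Il11ra2. Enho, which encodes the secreted peptide adropin, starts 56.8 kb from Cntfr and rose by 3.32 ± 0.44 (edgeR adjusted p = 3.29e-04), with 7.52, 9, 10.4 and 13.4 CPM in shDouble against 1.06 and 0.948 in shChd1. Of the 14 genes tested within 500 kb of Cntfr, 6 rose and 1 fell. Over all genes tested 22.6% rose and 22.2% fell, and over the 882 genes of chromosome 4 the shares were 28.9% and 16.4%. The median log2 change over those 882 genes was 0.16. Whether the Cntfr difference is part of a shift of its region was not tested.

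**Figure D5:**
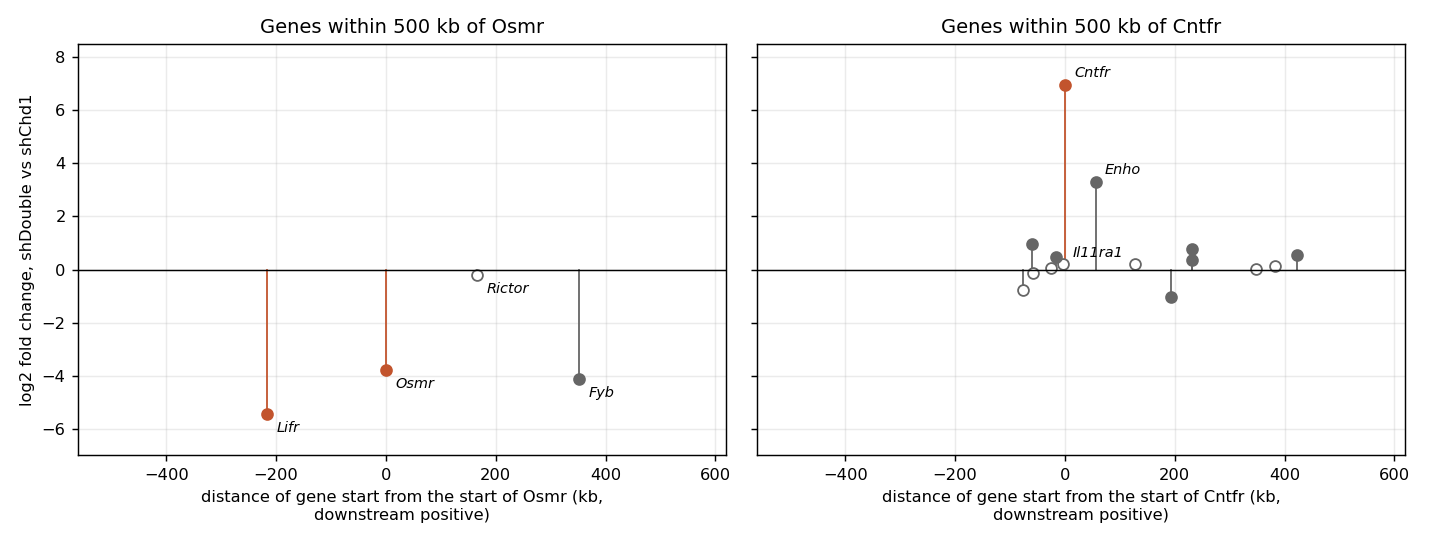
Log2 fold change in shDouble against shChd1 (vertical axis) of tested genes within 500 kb of Osmr (left) and Cntfr (right), by the distance of their starts in kb (positive is downstream); filled points had an adjusted p under 0.05. Rictor stands at -0.21 beside Osmr at -3.77, and Il11ra1 at 0.21 beside Cntfr at 6.97.

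Patterns over the 11 libraries were compared by root mean square distance of centred log2 CPM, with predicted genes and other provisional symbols passed over. Nearest to Il6 were Lrp1, an endocytic receptor (0.488), Chst1, a carbohydrate sulfotransferase (0.549), and Xdh, a xanthine dehydrogenase (0.562). The median distance over the genes compared was 2.98. Lrp1 ranged over 13.8 to 22.8 CPM in shDouble and 16.3 to 23.1 in shMap3k7, against 771 to 936 in shChd1 and 455 to 1072 in shControl. Nearest to Cntfr were Bdkrb2, a bradykinin receptor (0.555), Chrm3, a muscarinic receptor (0.744), and Slain1, a microtubule-binding protein (0.747), with a median of 2.68. Bdkrb2 ranged over 18.5 to 31.1 CPM in shDouble and 20.1 to 22.4 in shMap3k7, against 0.0632 to 0.124 in shChd1 and 0.363 to 3.46 in shControl. Chrm3 and Slain1 also differed between the Map3k7 clones, with Slain1 at 11.3, 10.3 and 11.4 CPM in clone 1 and 3.64, 3.03 and 2.68 in clone 7.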

How the data were processed

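RNA of WFU3 cells was measured by RNA sequencing (oligo(dT) selection, random-hexamer cDNA, per the labels' protocols). Reads were processed with Bowtie2 and RSEM 1.3.1 on GRCm38, per the submitters' processing notes, and the authors deposited expected counts per gene and a table of log2 values for 17966 genes. The deposited log2 values equal log2 of the expected count plus 0.5, shifted by a constant per library. Strand handling is not given in the sources used here.

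Expected counts were rounded to whole numbers and fitted with edgeR 4.0.16 (R 4.3.3; quasi-likelihood F test, TMM, the filterByExpr filter at min.count 10 and min.total.count 15, 1 mean per group, all 11 libraries). Benjamini-Hochberg adjustment ran over all 14346 genes tested, and a call is an adjusted p under 0.05. Log2 CPM for likeness and within-line ratios used a prior count of 2. SE is the log2 fold change over the square root of F. Clones 1 and 7 were compared over 13030 genes with the second hairpin as covariate. Counting intervals (95%) cover counting error only. Alternatives were relative log expression factors, no filter, DESeq2 1.42.0, limma 3.58.1 on the deposited log2 values, only the groups compared, counts summed per line, the line as a block, the longest transcript as length, and each library left out. Lines pair the groups by design, since the second hairpin was put into clones 1, 7 and 4, and the difference between clones 1 and 7 correlated between shMap3k7 and shDouble (r = 0.57 across 14346 genes, which are not independent). The scripts were tested on simulated data.

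The members, lists and tests were chosen with earlier results of these data known. Named besides them are Map3k7 and Chd1, up to 4 called genes per list with the smallest adjusted p in shDouble against shChd1 (1 gene that this rule takes is not reported here), and the 3 genes nearest in pattern to Il6 and to Cntfr; Rictor, Fyb, Enho and the remaining genes named were singled out after their values were seen. Exons are from GENCODE M21.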

Additional observations from a re-analysis of the deposited data

How the results depend on the processing

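The 9 calls in shDouble against shChd1 remained 9 under every alternative except counts summed per line, which gave 6 and left few degrees of freedom; the direction of all 10 genes held throughout, and Il6 ranged from -7.03 to -6.41. All genes called there numbered 6426, against 1569 with counts summed per line, 4187 without shChd1 replicate 1 and 3649 without shChd1 replicate 2. STAT3-responsive calls were 17, against 10 with counts summed per line, and 1 of the other ligands was called without shChd1 replicate 1. In shChd1 against shControl, members called were 0, against 2 with DESeq2 and 1 with the line as a replicate block, and 0 to 3 with 1 library left out (3 without shControl replicate 2); Cntfr reversed from -3.43 to 0.78 with the line as a replicate block. The block changed no call of the 10 genes in shDouble against shMap3k7 or in the interaction. Interaction calls were 0 to 1 with 1 library left out (1 without shControl replicate 2). Between clones 1 and 7, 2 genes were called, against 1 with DESeq2 and 4 without the filter. Neither of the 2 was called without shDouble replicate 1. With 1 library left out a second hairpin keeps 1 library, so the calls of those fits are not counted. The median of the 10 genes in shMap3k7 against shControl, -1.18, ranged from -1.35 to -0.93 with 1 library left out (-0.93 without shControl replicate 2). With the longest transcript as length 5 of the 10 genes kept their rank. Some libraries hold under 10 counts of Il6, Il11, Lifr or Cntfr, so counting error is part of those values.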
